A study of Mus musculus with 4 samples.

Results

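Macrophages with high Gpnmb transcript counts were described in CD45+ cells sorted from the spinal cord of mice with experimental autoimmune encephalomyelitis (EAE), an immunisation model of multiple sclerosis. There were 1577 of them among 28598 cells that passed quality filters. A cell was counted if it held 500 or more unique molecular identifiers (UMIs, each 1 captured transcript) from 200 or more genes, with no more than 10% from mitochondrial genes. It further needed at least 10 UMIs of Lyz2 and 1 of Csf1r, fewer than 5 of Sparc, P2ry12, Tmem119 and Crybb1 together, and none of Flt3 or Cd3e. S100a8 and S100a9 had to stay under 5% of its UMIs, and Gpnmb had to reach 10 UMIs. These thresholds keep myeloid cells and leave out microglia, dendritic cells, T cells and neutrophils by their transcripts. Cells that met every criterion other than Gpnmb, 4781 in all, are called other gated macrophages here. The members were thus selected on these UMI counts. The name other gated macrophages follows the gate, which does not part macrophages from monocytes or marrow precursors.

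The cells came from 4 libraries, 2 from mice given Reg1-MOs and 2 from mice given Ctrl MO. All mice were of the C57BL/6 strain, all had EAE, and both agents were injected into the cranium on day 9 after immunisation, with collection on day 16. The sources used here do not give sex, age, the number of animals behind a library or whether any were pooled. Because nothing says that replicates came from separate animals, p-values measure the spread between these libraries, which may be technical. The labels spell out neither MO nor Reg1. Reg1 is taken for Regnase-1, an RNase made from Zc3h12a that cleaves mRNAs of inflammation, and MO for morpholino. No sample without EAE was included.

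Gpnmb encodes a transmembrane glycoprotein found on late endosomes and lysosomes, and it rises in macrophages and microglia that take up lipid-rich debris. Such cells internalise myelin fragments, break them down in lysosomes, store cholesterol and fatty acids in lipid droplets, and export cholesterol on apolipoprotein E through the ABC transporters Abca1 and Abcg1. In demyelinating lesions they are known as foamy macrophages. Trem2, a lipid-sensing receptor that signals through Tyrobp, is part of the same response in mouse microglia.

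Promoters of 3 genes are shown because Gpnmb defines the cells, because Saa3, an acute phase serum amyloid A protein, was listed as one of their markers, and because Ctsd, the lysosomal protease cathepsin D, was among the genes highest beside Gpnmb. Each runs from 250 bases before to 50 bases after the annotated start, 5′ to 3′ on the gene's strand, from RefSeq on GRCm38.p6. Capitals mark the motif letters TGANTCA (the AP-1 core) in Gpnmb, TTNNGCAA (a C/EBP core) in Saa3 and CACGTG (the E-box bound by MiT/TFE factors) in Ctsd. Both strands were searched.
Gpnmb, chr6:49036268-49036567, plus strand: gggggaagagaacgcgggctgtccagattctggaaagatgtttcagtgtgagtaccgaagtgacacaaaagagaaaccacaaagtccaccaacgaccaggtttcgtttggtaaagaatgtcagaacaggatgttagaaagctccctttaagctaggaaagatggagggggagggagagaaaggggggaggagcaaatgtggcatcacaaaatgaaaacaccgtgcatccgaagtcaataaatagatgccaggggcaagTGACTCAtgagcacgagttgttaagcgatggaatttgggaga
Saa3, chr7:46715627-46715926, minus strand: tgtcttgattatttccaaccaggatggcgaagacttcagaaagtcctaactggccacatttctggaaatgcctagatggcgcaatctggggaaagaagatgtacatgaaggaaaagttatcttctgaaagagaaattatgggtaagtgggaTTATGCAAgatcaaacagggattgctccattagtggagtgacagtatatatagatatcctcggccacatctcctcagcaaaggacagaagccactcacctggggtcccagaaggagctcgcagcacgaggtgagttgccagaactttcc
Ctsd, chr7:142387778-142388077, minus strand: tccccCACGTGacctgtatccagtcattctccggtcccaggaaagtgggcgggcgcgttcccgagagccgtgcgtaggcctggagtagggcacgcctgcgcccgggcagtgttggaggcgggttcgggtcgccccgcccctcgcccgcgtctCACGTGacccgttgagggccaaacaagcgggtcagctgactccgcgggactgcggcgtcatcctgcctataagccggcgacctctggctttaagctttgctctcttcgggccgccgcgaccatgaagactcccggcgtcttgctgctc
The AP-1 letters in Gpnmb begin at 8 relative to the annotated start, and the C/EBP letters in Saa3 begin at -99. Ctsd holds CACGTG 2 times. Of 32851 promoters of the same length, 7.15% hold CACGTG, 7.81% TGANTCA and 10.8% TTNNGCAA. CACGTG is present in 10 of the 23 lysosomal genes that matched a promoter out of a list of 30 (43.5%). TTNNGCAA is present in 8 of 9 matched acute phase genes out of a list of 12 (88.9%). Among the 15 genes highest in Gpnmb-high cells, Gpnmb included, 11 matched, and 1 held CACGTG (Ctsd), 1 TGANTCA (Gpnmb) and 2 TTNNGCAA (Il7r and Syngr1). The motifs were chosen after the sequences had been seen, and a match is a description of letters, not a binding site.

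The libraries held 5256 to 9103 barcodes and 75472324 to 174552218 UMIs. Reg1-MO 1 contributed 461 Gpnmb-high cells and Reg1-MO 2 contributed 74, against 431 in control 1 and 611 in control 2. Their summed profiles held 11690218 and 1983972 UMIs in the Reg1-MO libraries and 13098182 and 14560884 in the controls. The profile of Reg1-MO 2 was by far the shallowest, so its values carry the largest counting error. A cell had a median of 20082 and 22010.5 UMIs after Reg1-MO and 24749 and 21992 after Ctrl MO, with 4279 to 4803 genes. The other gated macrophages were shallower, with medians of 13436.5 and 13872 UMIs after Reg1-MO and 16315 and 15896.5 after Ctrl MO. No cell barcode was shared by Gpnmb-high cells of different libraries, and each pair of libraries shared 10 to 75 barcodes among all kept cells.

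The cells carried the transcripts of macrophages. All 10 macrophage markers, including Adgre1 (F4/80), Fcgr1 and Mertk, were detected in each library, and their summed level was 5895 and 5275 CPM (UMIs of a gene per 1e+06 UMIs) after Reg1-MO and 5878 and 5091 after Ctrl MO. Microglia markers summed to 725 and 568 CPM in the Reg1-MO libraries and 659 and 555 in the controls. Border-associated macrophage markers summed to 412 and 641 CPM against 468 and 349, with Cd209f at 0 in all 4 libraries and Lyve1 and Cd163 at 0 in 3. T cell markers summed to 4.03 to 11.3 CPM, NK cell markers to 3.02 to 15.7 and B and plasma cell markers to 3.53 to 5.70. Transcripts of myelin-forming cells, such as Mbp (myelin basic protein), summed to 71.2 and 76.6 CPM after Reg1-MO and 66.8 and 81.9 after Ctrl MO.

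Of 15 marker lists, the sums of 4 did not overlap between the groups. Such gaps were common: of single genes, 22.1% lay above both controls after Reg1-MO and 23.3% below both. Monocyte markers summed to 3915 and 3426 CPM after Reg1-MO and 8601 and 12444 after Ctrl MO. Of these sums Chil3, a secreted chitinase-like lectin, took 1620 and 667 against 6222 and 10955. As single genes, 5 of the 7 markers had a positive log2 fold change (Reg1-MO over control), 2 lay above both controls and 2 below. Their median was 0.13, so the sums did not reflect the list as a whole. Dendritic cell markers summed to 15.5 and 14.6 CPM against 13.4 and 7.97, and astrocyte and neuron markers to 47.0 and 51.4 against 35.5 and 19.99. Single genes made up most of these sums in the Reg1-MO libraries. Clec9a took 10.5 and 10.6 CPM of the dendritic sums, against 7.25 and 6.39 in the controls. Aldoc took 38.7 and 38.8 CPM of the astrocyte and neuron sums, against 28.5 and 18.1. The 12 neutrophil markers summed to 1294 and 1466 CPM in Gpnmb-high cells of the Reg1-MO libraries, against 3844 and 3574 in the controls. The same sum was 1234 and 1436 against 4097 and 5563 in other gated macrophages, and 287 and 432 against 759 and 1079 in T cells (at least 3 Cd3e UMIs, fewer than 10 Lyz2 UMIs). The share of kept cells with at least 5% of UMIs from S100a8 and S100a9 was 5.38% and 19.9% after Reg1-MO and 25.3% and 37.1% after Ctrl MO. Doublet scoring marked 6 and 0 Gpnmb-high cells in the Reg1-MO libraries and 7 and 14 in the controls, at most 2.29% of a library's members. Cells with a UMI of a T, NK or B cell marker, or with 1% or more of UMIs from S100a8 and S100a9, were more frequent, at 16.9% and 10.8% of Gpnmb-high cells after Reg1-MO and 13.2% and 10.6% after Ctrl MO.

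Of the 4 listed markers, Fabp5 and Apoe were broad and Saa3 was not. At least 10 UMIs of Fabp5, an intracellular fatty acid carrier, were present in 89.4% and 93.2% of Gpnmb-high cells after Reg1-MO and in 89.1% and 89.4% after Ctrl MO. For Apoe these shares were 99.1% and 95.9% against 99.3% and 99.8%. Saa3 reached 10 UMIs in 25.4% and 36.5% of the cells in the Reg1-MO libraries and in 37.4% and 44.5% in the controls. With every cell thinned to 5000 UMIs and a minimum of 3, the Saa3 shares were 19.3% and 28.4% against 30.7% and 43.9%, with 0 or 1 shallower cell left out per library. The top 10% of the cells held 65.1% and 70.4% of all Saa3 UMIs after Reg1-MO and 58.9% and 64.9% after Ctrl MO. Most Gpnmb-high cells thus held Fabp5 and Apoe, while most had little Saa3. Such shares were not computed for other gated macrophages. Apoe was also abundant in gated macrophages without a Gpnmb UMI, at 5251 and 3240 CPM after Reg1-MO and 6231 and 7259 after Ctrl MO.

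Arg1, which converts arginine to ornithine, also split the cells. At least 10 Arg1 UMIs were found in 75.7% and 67.6% of Gpnmb-high cells after Reg1-MO and in 90.5% and 47.5% after Ctrl MO. Spp1, the secreted phosphoprotein osteopontin, reached 10 UMIs in 43.4% and 36.5% against 51.3% and 43.4%. Across Gpnmb-high cells at equal depth, Gpnmb and Fabp5 counts were correlated, with Spearman correlations of 0.371 and 0.395 in the Reg1-MO libraries and 0.356 and 0.435 in the controls. The other listed markers followed Gpnmb less closely. For Gpnmb and Apoe the values were 0.071 and 0.197 after Reg1-MO and 0.024 and 0.205 after Ctrl MO, and for Gpnmb and Saa3 -0.175 and 0.098 against -0.156 and 0.047. These are descriptions over 460, 74, 430 and 610 cells of Reg1-MO 1, Reg1-MO 2, control 1 and control 2, and cells of a library are not independent samples.

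Gpnmb counts formed a gradient among gated macrophages, and other genes of the state followed it. Cells without a Gpnmb UMI numbered 1513 and 886 in the Reg1-MO libraries and 829 and 259 in the controls. Cells with 20 or more numbered 275 and 29 against 276 and 458. Between these extremes Fabp5 was 3444 against 169 CPM in Reg1-MO 1, 4799 against 193 in Reg1-MO 2, 3288 against 175 in control 1 and 3203 against 86.5 in control 2. Cathepsin D transcripts (Ctsd) were 4130, 4915, 4928 and 6985 CPM in the cells with 20 or more Gpnmb UMIs, and 956, 733, 1156 and 940 in those with none, in the same order of libraries. Both genes were thus several times higher at the top of the gradient in each library.

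Markers of recruited inflammatory monocytes ran the other way. Ccr2, the receptor that brings monocytes into tissue, was 140 and 171 CPM in Reg1-MO cells with 20 or more Gpnmb UMIs and 466 and 614 in those with none. In the controls it was 78.0 and 30.03 against 393 and 460. Il1b, the inflammasome cytokine, was 1717 and 1957 against 4057 and 4383 after Reg1-MO, and 1217 and 676 against 3097 and 1982 after Ctrl MO. Saa3 did not peak at the top in every library: in Reg1-MO 1 it was 500 CPM in cells with 10 to 19 Gpnmb UMIs and 327 in those with 20 or more, and in control 1 it was 802 and 611. Depth rose along the gradient as well, with median UMIs per cell of 22950 against 12856 in Reg1-MO 1, 22800 against 13501 in Reg1-MO 2, 26167.5 against 15793 in control 1 and 23142.5 against 15371 in control 2.

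**Figure D1:**
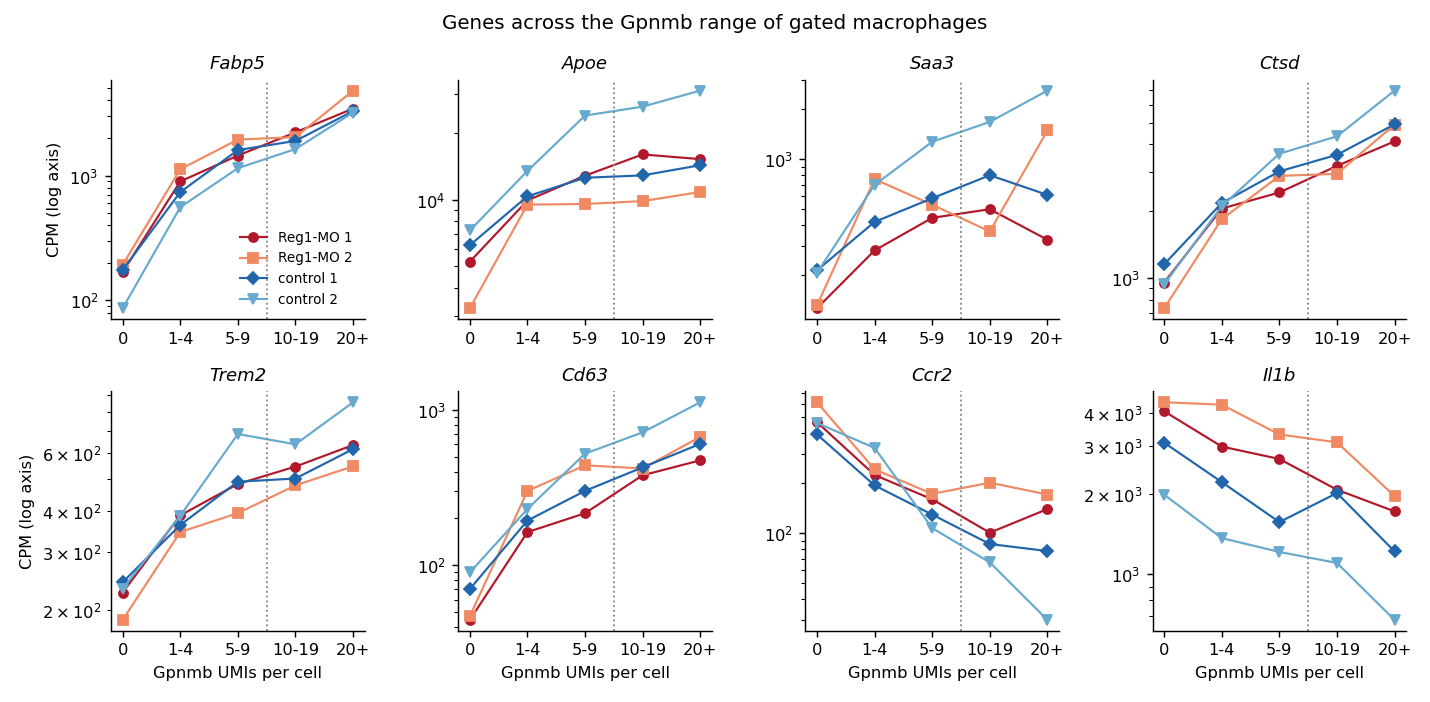
Levels of genes in gated macrophages by the number of Gpnmb UMIs per cell, in CPM on a log scale, with 1 line per library and a dotted line at the minimum of 10 UMIs. Fabp5 climbs along the axis in all 4 libraries (3444 CPM at 20 or more UMIs against 169 at 0 in Reg1-MO 1) and Ccr2 falls away (140 against 466 CPM).

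The minimum of 10 UMIs cut through this gradient, and Fabp5 showed no step across it that the 4 libraries shared. Cells with 10 or 11 Gpnmb UMIs numbered 47 and 15 after Reg1-MO and 39 and 38 after Ctrl MO, and cells just outside, with 8 or 9, numbered 48 and 18 against 45 and 29. Fabp5 was 2098 and 1572 CPM just inside the threshold in the Reg1-MO libraries and 1928 and 1272 in the controls, and just outside it was 1565 and 2174 against 1865 and 1287. Sets of 15 to 48 cells could hide a small step. Among T cells with fewer than 10 Lyz2 UMIs, 0 of 2193 and 1030 T cells after Reg1-MO and 0 of 1578 and 806 after Ctrl MO reached 10 Gpnmb UMIs, which allows shares of up to 0.137%, 0.291%, 0.190% and 0.372%. At least 1 Gpnmb UMI was seen in 4.29% and 0.680% of these T cells after Reg1-MO and in 3.80% and 4.59% after Ctrl MO, at a median depth of 7527 to 8113.5 UMIs. That cap on Lyz2 leaves out cells with much myeloid RNA. Without it, 4.18% and 0.720% of cells with at least 3 Cd3e UMIs reached 10 Gpnmb UMIs after Reg1-MO and 2.11% and 2.13% after Ctrl MO, and the part of free RNA and doublets in these was not tested.

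Next to other gated macrophages of the same library, Gpnmb-high cells had more transcripts for lysosomal degradation and cholesterol handling and fewer of cell cycle, inflammatory monocyte, interferon-gamma and NF-kB feedback genes. The split was made on Gpnmb, so these values are a description with no test. Other gated macrophages were a mixture that also carried monocyte and marrow precursor transcripts, averaging 401 CPM of Ccr2, 253 of Elane and 123 of Mpo. The part of this mixture in the ratios, and in shares of gated macrophages, was not tested. Each ratio is log2 of CPM plus 1, as the mean over the 4 libraries with its SD. Of 12429 genes, 16.1% were higher in Gpnmb-high cells in all 4 libraries and 32.5% were lower in all 4, with a median ratio of -0.09.

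Lysosomal genes stood out by number. Of 30 listed, 29 were higher in all 4 libraries and none was lower in all 4, with a median log2 ratio of 0.69. Atp6v0d2, a subunit of the proton pump that acidifies lysosomes, averaged 71.6 CPM in Gpnmb-high cells and 5.45 in the others, a log2 ratio of 3.39 ± 0.26. The tetraspanin Cd63 averaged 637 CPM against 129 (2.28 ± 0.13), Ctsd 4632 against 1420 (1.70 ± 0.23) and the cysteine protease Ctsb 3756 against 1264 (1.57 ± 0.13). The exception was Lamp2, a structural membrane protein, at 462 against 451 CPM.

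Lipid lists did not share 1 direction. Of 15 genes for efflux and lipoproteins, 12 were higher in all 4 libraries (80%, where 16.1% of all genes were) and 2 lower. The median of this list was 0.77. Apoe averaged 17403 CPM in Gpnmb-high cells and 7771 in the others, with log2 ratios of 1.16 and 1.23 in the Reg1-MO libraries and 0.80 and 1.35 in the controls. Of 19 genes for lipid uptake and storage, 9 were higher in all 4 libraries and 3 lower, with a median of 0.20. Among their intracellular carriers and droplet proteins, Fabp5 averaged 2975 CPM against 436 (2.77 ± 0.16) and Plin2, which coats lipid droplets, 719 against 369 (0.94 ± 0.12). Lipa, the lysosomal acid lipase that frees cholesterol from its esters, was at 173 against 82.6 CPM. Surface uptake receptors were not raised together: Msr1, a scavenger receptor, was at 110 against 140 CPM and lower in all 4 libraries, while Cd36, a fatty acid transporter, was at 8.45 against 9.62 CPM. Of 16 cholesterol synthesis genes none was higher in all 4 and 8 were lower, with a median of -0.42, and of 12 fatty acid oxidation genes 2 were higher and 3 lower (median 0.03).

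Recognition and clearance genes were mixed. Of 14 Trem2-associated genes, 9 were higher in all 4 libraries and none was lower in all 4, among them Trem2 at 626 against 289 CPM and Spp1 at 1327 against 445. Of 17 genes for uptake of apoptotic cells and debris, 7 were higher, including Mertk, a receptor for dying cells, at 315 against 163 CPM, and 3 were lower. Plpp3, a lipid phosphate phosphatase, had a log2 ratio of 2.92 ± 0.76, and the synaptic vesicle protein family member Syngr1 one of 2.30.

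Cell cycle genes lay low in Gpnmb-high cells. Of 18, 17 were lower in all 4 libraries and none was higher, with a median of -1.79. Ube2c, a ubiquitin-conjugating enzyme of mitosis, averaged 3.78 CPM in Gpnmb-high cells and 52.2 in the others (-3.68 ± 1.22), and Pclaf, which binds the replication clamp PCNA, 3.17 against 62.6 (-4.14 ± 1.70). The 10 genes lowest by their least extreme library included these 2 and Elane, Ctsg, Mpo and Prtn3, proteases and peroxidase of granules made in marrow precursors, with log2 ratios of -4.47, -3.87, -3.79 and -2.99. Plac8 averaged 420 CPM against 1731, and the matrix proteoglycan Vcan had a ratio of -3.09. Of 13 inflammatory monocyte genes 10 were lower in all 4 libraries and none was higher. Interferon-gamma response genes were lower in 15 of 21 and NF-kB feedback genes in 14 of 18. Type I interferon genes were lower in 7 of 18 (38.9%), near the 32.5% of all genes. The exception among interferon-gamma genes was Nos2, at 220 against 185 CPM and higher in all 4 libraries. MHC class II genes did not follow the gradient as a group: 4 of 8 were lower in all 4 libraries, and Cd74 was at 10856 against 10469 CPM. With cells thinned to 5000 UMIs, mean ratios were 2.90 for Fabp5, 1.84 for Ctsd, 2.53 for Cd63 and 1.21 for Apoe.

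**Figure D2:**
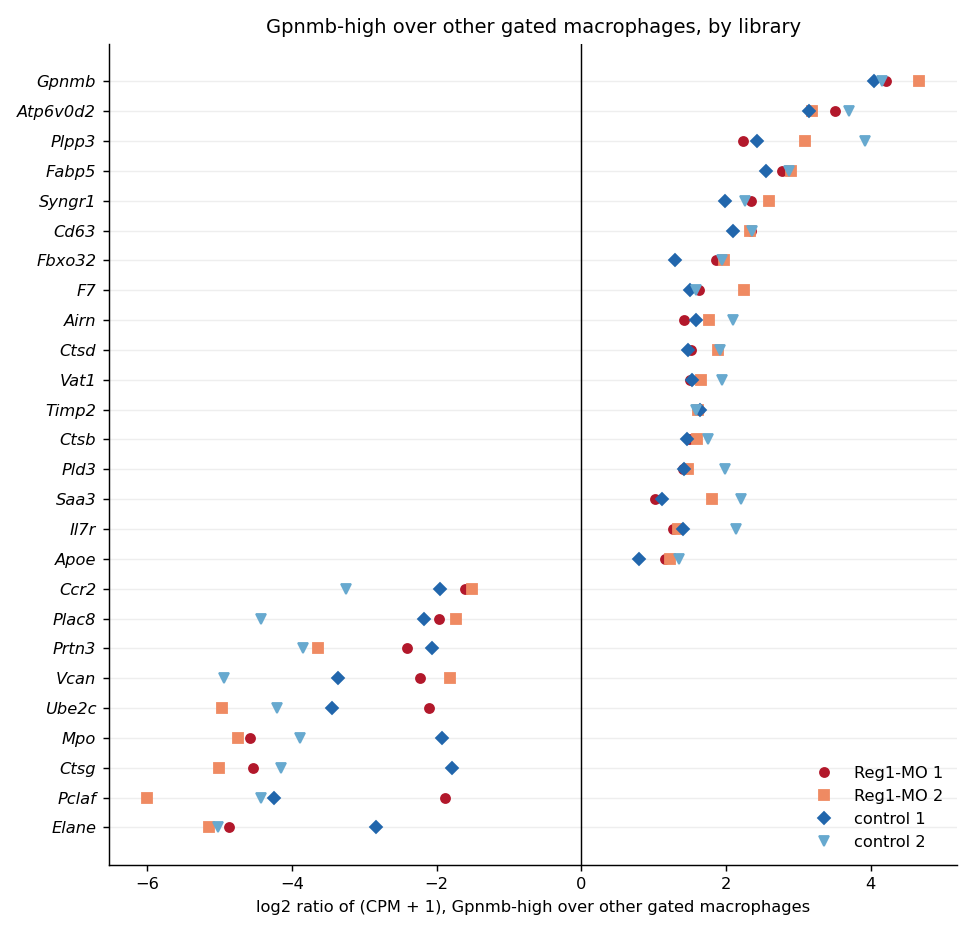
Log2 CPM ratios of Gpnmb-high over other gated macrophages within each library, for the 15 genes highest and 9 of the 10 genes lowest by their least extreme library, with the markers Saa3 and Apoe added. Points are the 4 libraries. Fabp5 spans 2.55 to 2.90, and Ccr2 lies below 0 in each.

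Reg1-MO was then compared with Ctrl MO, first for how frequent the cells were. Gpnmb-high cells took a smaller share of gated macrophages in each Reg1-MO library than in either control, but with 2 libraries a group the exact permutation test over libraries cannot pass. They made up 18.3% (exact binomial 95% interval 16.8 to 19.9) in Reg1-MO 1 and 6.71% (5.30 to 8.35) in Reg1-MO 2, against 26.1% (24.0 to 28.3) in control 1 and 56.0% in control 2. The means were 12.5% ± 8.23 after Reg1-MO and 41.1% ± 21.1 after Ctrl MO (SD, n = 2 each), a difference of -28.5 percentage points (two-sided exact permutation p = 0.333, the smallest that 2 against 2 allows). The groups did not overlap, yet the controls differed from each other by more than Reg1-MO 1 differed from control 1. Without control 2 the difference was -13.6 points.

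As a share of all kept cells they were 5.29% (4.83 to 5.78) in Reg1-MO 1 and 1.43% (1.13 to 1.79) in Reg1-MO 2, against 5.33% (4.85 to 5.85) in control 1 and 9.21% in control 2. Reg1-MO 1 and control 1 were inside each other's counting intervals, and the mean difference was -3.91 points (exact permutation p = 0.333). It was -1.97 points without control 2 and -1.98 without Reg1-MO 2. At a Gpnmb minimum of 5, Reg1-MO 1 lay above control 1, at 7.19% against 6.99%, and the groups overlapped. The total includes the cells rich in S100a8 and S100a9, whose share differed between the groups. With those cells left out of the total the difference was -7.21 points. Intervals cover counting error only.

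**Figure D3:**
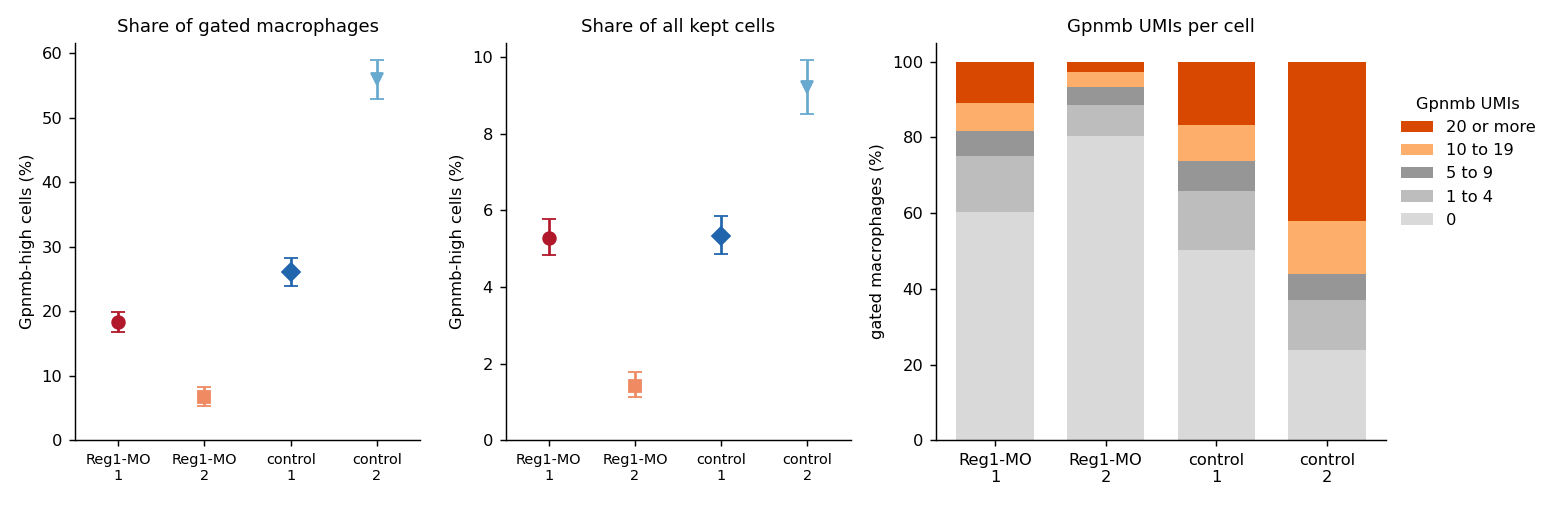
Gpnmb-high cells as a percentage of gated macrophages and of all kept cells by library, with exact 95% binomial intervals, and the split of gated macrophages by Gpnmb UMIs per cell. In the first panel the Reg1-MO libraries lie at 18.3% and 6.71%, below the controls at 26.1% and 56.0%.

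Within Gpnmb-high cells, transcripts were then compared between Reg1-MO and Ctrl MO over libraries. Only Retnlg, a resistin-like secreted protein of neutrophils, passed the edgeR test, and it was lower after Reg1-MO. MHC class II, NF-kB feedback and glycolytic genes lay higher in the Reg1-MO libraries without passing it, while edgeR called no listed lipid or lysosomal gene and many spread widely between the controls. Of 11656 genes tested with edgeR, 0 were called higher (0% of genes) and 1 lower (0.00858%) at an adjusted p under 0.05, and 1148 had an unadjusted p under 0.05. DESeq2 called 38 higher (0.326%) and 58 lower (0.498%). These shares are of the 11656 genes tested with edgeR, whereas DESeq2 was run on 18512 genes. Without control 1 edgeR called 2002 genes and without control 2 it called 313, while without either Reg1-MO library it called 0, so the count depended on single libraries. Both Reg1-MO libraries lay above both controls for 22.1% of all genes and below both for 23.3%, and the median log2 fold change was 0.00.

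Zc3h12a, read here as the target of Reg1-MO, was at 44.8 and 44.3 CPM in Gpnmb-high cells after Reg1-MO and at 45.2 and 56.7 after Ctrl MO. Its log2 fold change was -0.19 ± 0.16 (SE; edgeR adjusted p = 0.720), and without control 2 it was -0.02. Control 1 lay within 1 CPM of both Reg1-MO libraries. The gene (ENSMUSG00000042677) spans chr4:125118423-125127840 on the minus strand of GRCm38. The labels give no target site, and a morpholino need not change the transcript's level.

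The 4 listed markers did not pass the test in either direction. Fabp5 (ENSMUSG00000027533, chr3:10012548-10016607, plus strand) was at 3048 and 3099 CPM after Reg1-MO and 2798 and 2969 after Ctrl MO, a log2 fold change of 0.09 ± 0.16 (edgeR adjusted p = 0.877). Apoe (ENSMUSG00000002985, chr7:19696109-19699188, minus strand) was at 15571 and 10208 CPM against 13541 and 30738, or -0.78 ± 0.41 (adjusted p = 0.572). The Apoe level of control 2 stood apart, and without that library the fold change was -0.07. Saa3 (ENSMUSG00000040026, chr7:46711998-46715700, minus strand) was at 388 and 802 CPM against 654 and 2479, or -1.40 ± 0.62 (adjusted p = 0.522), and -0.15 without control 2. For Apoe and Saa3 the groups overlapped. Gpnmb (ENSMUSG00000029816, chr6:49036546-49070929, plus strand), which chose the cells, was at 1090 and 849 CPM against 1051 and 1860.

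Of the genes for lipid uptake and storage, edgeR called none and DESeq2 called Hilpda and Dgat1 lower. Of 19 tested, 3 lay above both controls (15.8%) and 7 below (36.8%), where 22.1% and 23.3% of all genes did. The median was -0.37. Plin2 was at 572 and 598 CPM after Reg1-MO and 780 and 933 after Ctrl MO, a log2 fold change of -0.55 (edgeR adjusted p = 0.415). Hilpda, a hypoxia-induced droplet protein that restrains lipolysis, was at 139 and 143 against 245 and 248 CPM, with little spread in either group. Its fold change was -0.80 ± 0.14 (edgeR adjusted p = 0.258; DESeq2 adjusted p = 0.005). Dgat1, which makes the final step of triglyceride synthesis, was at 50.3 and 57.9 CPM against 95.7 and 146 (edgeR adjusted p = 0.297; DESeq2 adjusted p = 0.005). Lpl, lipoprotein lipase, was at 13.2 and 11.6 CPM against 29.6 and 170, so that most of its difference of -2.98 came with control 2 (-1.22 without it). Its edgeR adjusted p was 0.394.

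Efflux, synthesis and oxidation genes gave no call with edgeR or DESeq2. Of 15 efflux and lipoprotein genes, 3 lay above both controls (20%) and 7 below (46.7%), with a median of -0.40. Over all genes these shares were 22.1% and 23.3%. Npc2, which moves cholesterol out of lysosomes, was at 2241 and 1965 CPM after Reg1-MO and 2123 and 1773 after Ctrl MO. Of 16 cholesterol synthesis genes 11 lay above (68.8%) and 1 below (6.25%), with a median of 0.44. Insig1, which holds the SREBP complex in the endoplasmic reticulum, was at 25.4 and 39.8 CPM against 30.2 and 23.7. Of 12 fatty acid oxidation genes none lay above and 8 below (66.7%), with a median of -0.24. The dehydrogenase Acadl was at 84.1 and 81.5 CPM against 92.8 and 105.

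Lysosomal genes, of which 29 of 30 marked the state, gave no call with edgeR or DESeq2. Of 30 tested, 3 lay above both controls (10%) and 17 below (56.7%), where 22.1% and 23.3% of all genes did. The median was -0.17. Atp6v0d2 had the lowest fold change of the list, -2.19 ± 0.49 (edgeR adjusted p = 0.345; DESeq2 adjusted p = 0.193). It was at 24.2 and 28.7 CPM after Reg1-MO and 60.8 and 175 after Ctrl MO, and its fold change was -1.25 without control 2. Ctsd was at 3839 and 3706 CPM after Reg1-MO and 4418 and 6628 after Ctrl MO, a log2 fold change of -0.55 (edgeR adjusted p = 0.512), and Cd63 at 444 and 515 against 537 and 1064. Control 2 was the highest library for both. Ctss, a protease that also trims the MHC class II invariant chain, was at 8163 and 6813 against 8362 and 9811 CPM, and Psap, the precursor of sphingolipid-degrading cofactors, at 6546 and 6380 against 6435 and 8559.

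Of the phagocyte genes, edgeR called none and DESeq2 called 1. Of 14 Trem2-associated genes 6 lay above both controls (42.9%, where 22.1% of all genes did) and 0 below (median 0.04). Trem2 was at 608 and 504 CPM in Reg1-MO libraries and 568 and 833 in controls, Lgals3 at 3142 and 2911 against 3024 and 3028, and Tyrobp at 2301 and 2179 against 2217 and 2520. Of 17 debris uptake genes 1 lay above (5.88%) and 6 below (35.3%, where 23.3% of all genes did), with a median of -0.10. The complement subunits were at 1792 and 1199 against 1658 and 1248 CPM for C1qa and 2606 and 1770 against 2380 and 2323 for C1qb. The groups overlapped for these 5 genes. Mrc1, the mannose receptor, was the gene called by DESeq2, at 9.81 and 17.1 CPM against 31.4 and 52.9 (edgeR adjusted p = 0.315; DESeq2 adjusted p = 0.003).

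MHC class II genes lay highest after Reg1-MO among the lists of immune function. All 8 listed genes lay above both controls, where 22.1% of all genes did, with a median log2 fold change of 1.00 (0.76 to 1.32 when 1 library was left out). H2-Eb1, a beta chain, was at 2919 and 2880 CPM after Reg1-MO and 1501 and 1078 after Ctrl MO, a fold change of 1.17 ± 0.21 (edgeR adjusted p = 0.258; DESeq2 adjusted p = 9.12e-05). H2-Aa, an alpha chain, was at 4782 and 4462 CPM against 2689 and 2002 (edgeR adjusted p = 0.332), and Cd74, the invariant chain, at 14444 and 13758 against 8421 and 6829 (edgeR adjusted p = 0.347). None passed edgeR, and 5 of the 8 passed DESeq2. In T cells, which can take up free RNA in their droplets, H2-Eb1 was at 324 and 170 CPM against 66.9 and 83.6 and Cd74 at 1256 and 736 against 262 and 299. The part of free RNA in the difference was not tested.

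Interferon-gamma response genes lay on the higher side after Reg1-MO, with a wide spread between the controls and no call with edgeR or DESeq2. Of 20 interferon-gamma response genes all had a positive fold change and 9 lay above both controls (45%, median 0.76). Cxcl9, a chemokine that draws Cxcr3-bearing T cells, was at 630 and 599 CPM after Reg1-MO and 256 and 75.8 after Ctrl MO, a log2 fold change of 1.89 (edgeR adjusted p = 0.395). The list's median was 2.25 without control 1 and 0.22 without control 2, so its size depended on which control was left out. Of 18 type I interferon genes 15 had a positive fold change, but only 3 lay above both controls (16.7%, where 22.1% of all genes did). None lay below both, where 23.3% of all genes did. The median was 0.40, and -0.19 without control 2. Neither tool called a type I interferon gene. Ifitm3, which blocks viral entry, was at 1356 and 1412 CPM against 1186 and 591.

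NF-kB feedback, cytokine and glycolytic genes lay on the higher side. Of 18 NF-kB feedback genes 16 lay above both controls (88.9%, where 22.1% of all genes did) and none below (median 0.66). The inhibitor Nfkbia was at 483 and 613 CPM after Reg1-MO and 393 and 226 after Ctrl MO, the precursor subunit Nfkb1 at 305 and 407 against 222 and 177, and Tnip3, which binds the deubiquitinase A20, at 38.9 and 69.0 against 18.2 and 14.0. Nfkb1 had a log2 fold change of 0.83 (edgeR adjusted p = 0.381, DESeq2 adjusted p = 0.048). Tnip3 had one of 1.69 (edgeR adjusted p = 0.258, DESeq2 adjusted p = 2.88e-04). Of 12 cytokine genes 8 lay above (66.7%) and none below (median 0.50). Il1b was at 1848 and 2659 CPM against 1428 and 774 and Tgfb1 at 301 and 348 against 224 and 212. Of 22 glycolysis and hypoxia genes 19 lay above (86.4%) and none below (median 0.62). Gapdh was at 2992 and 3184 CPM against 2704 and 1578 and Pkm at 1527 and 1560 against 1415 and 795. Leaving out 1 library at a time kept the medians of these 3 lists above 0, from 0.29 to 1.06. With edgeR no gene of these lists was called, while DESeq2 called 3 NF-kB feedback genes and 4 glycolysis and hypoxia genes higher.

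Of other secreted factors edgeR called none. Chil3 was at 1630 and 666 CPM after Reg1-MO and 6084 and 11200 after Ctrl MO, a log2 fold change of -2.91 ± 0.49 (edgeR adjusted p = 0.258; DESeq2 adjusted p = 0.017). The groups did not overlap, with every Reg1-MO value below every control value. In T cells Chil3 was at 17.0 and 7.55 CPM after Reg1-MO and 93.9 and 110 after Ctrl MO. The part of free RNA in the Chil3 difference was not tested. Of 12 genes of arginine use and alternative activation, Chil3 and Arg1 included, 3 lay above both controls (25%) and 2 below (16.7%). Over all genes 22.1% lay above and 23.3% below. DESeq2 also called Mrc1 lower and Il1rn, the interleukin-1 receptor antagonist, higher. Arg1 was at 2089 and 1577 CPM against 3201 and 846, so the Reg1-MO libraries lay between the controls. Of 17 chemokine genes 3 lay above and 3 below, 17.6% each and under both shares over all genes. Ccl6 was at 1236 and 1088 CPM against 2404 and 1374 and Cxcl2, which recruits neutrophils, at 1080 and 1636 against 1105 and 909. DESeq2 called 1 chemokine, Ccl5, which attracts T cells, at 1852 and 1453 CPM against 723 and 369 (edgeR adjusted p = 0.332; DESeq2 adjusted p = 2.06e-04). Of 16 reported Regnase-1 targets, a list written from general knowledge of such targets in other cells, 6 lay above (37.5%) and 2 below (12.5%). The median was 0.25, Il1b and Cxcl2 were among those listed, and DESeq2 called Lcn2 lower. Of 13 inflammatory monocyte genes 3 lay above and 3 below, 23.1% each and near the shares over all genes (median 0.10). DESeq2 called Chil3 lower and Ccr2 higher, with Ccr2 at 127 and 189 CPM against 78.7 and 37.8. Fn1, fibronectin, was at 802 and 945 CPM against 934 and 1133.

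Neutrophil transcripts lay low after Reg1-MO. Retnlg (ENSMUSG00000022651, chr16:48872621-48874496, plus strand) was at 57.2 and 71.5 CPM in the Reg1-MO libraries and 346 and 384 in the controls, a log2 fold change of -2.52 ± 0.18 (edgeR adjusted p = 0.045). Without Reg1-MO 1 its adjusted p was 0.389 and without Reg1-MO 2 it was 0.448. In T cells, which do not make it, Retnlg was at 11.4 and 15.5 CPM after Reg1-MO and 64.9 and 120 after Ctrl MO. Of 12 neutrophil markers 11 lay below both controls and none above, with a median of -1.83, where 23.3% of all genes lay below. Mmp8, neutrophil collagenase, was at 69.1 and 53.9 CPM against 223 and 234, Lcn2, an iron-binding lipocalin, at 44.8 and 33.7 against 134 and 141, and Ngp, a granule protein, at 18.0 and 5.54 against 137 and 108. DESeq2 called 8 of the 12 markers lower, where edgeR called 1. For Mmp8 the edgeR adjusted p was 0.084 and the DESeq2 adjusted p 2.68e-13. Csf3r, the G-CSF receptor, was the marker that did not lie below, at 115 and 97.2 against 97.3 and 105. In T cells Ngp was at 11.3 and 15.8 CPM against 38.3 and 38.0, levels close to those of Gpnmb-high cells after Reg1-MO. The part of neutrophil RNA in these values was not tested.

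Transcripts of marrow precursor granules were scarcer still after Reg1-MO. Mpo was at 0.172 and 0.503 CPM after Reg1-MO and 45.6 and 15.9 after Ctrl MO (edgeR adjusted p = 0.143; DESeq2 adjusted p = 1.21e-09). Ctsg was at 0.258 and 0.503 CPM against 35.8 and 9.83, and Elane at 1.29 and 1.01 against 48.4 and 15.2. The Reg1-MO levels rest on few UMIs, the controls spread widely, and none passed edgeR. In T cells Mpo was at 0.322 and 0.413 CPM after Reg1-MO and 2.77 and 2.68 after Ctrl MO.

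Of 9 acute phase genes 1 lay above (11.1%, where 22.1% of all genes did) and 4 below (44.4%, where 23.3% did). The median was -1.12, and -0.04 without control 2. Wfdc21 was at 15.8 and 21.1 CPM after Reg1-MO and 78.8 and 105 after Ctrl MO, and its relative Wfdc17 at 814 and 676 against 1130 and 1907. The edgeR adjusted p was 0.084 for Wfdc21 and 0.390 for Wfdc17. DESeq2 called 3 genes of this list lower. S100a8 and S100a9, which bounded the gate, were at 574 and 635 and at 396 and 530 CPM after Reg1-MO, against 1474 and 1428 and 1197 and 1158.

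Among the remaining genes with the smallest unadjusted p, the lower ones included Fkbp5, a glucocorticoid-induced chaperone, at 54.1 and 39.8 CPM after Reg1-MO and 143 and 199 after Ctrl MO (log2 fold change -1.84, edgeR adjusted p = 0.120). Klhl6, a ubiquitin ligase adaptor, was at 94.9 and 72.5 against 176 and 196 CPM. The higher ones included Cx3cr1, the fractalkine receptor of microglia and resident macrophages, at 66.8 and 82.1 against 32.5 and 36.6 CPM (1.09, adjusted p = 0.203). The summed microglia markers, of which 4 bounded the gate, overlapped between the groups. Procr, the protein C receptor, was at 32.9 and 34.7 against 16.2 and 16.4 CPM (1.05, adjusted p = 0.193), Hsph1, a heat shock chaperone, at 31.2 and 37.3 against 14.9 and 15.4, and Cnn3, an actin-binding calponin, at 35.5 and 42.3 against 12.0 and 5.41. None of these genes passed edgeR, and for each gene the groups did not overlap. The DESeq2 adjusted p was 0.003 for Cx3cr1, 0.026 for Procr, 0.012 for Hsph1 and 5.97e-05 for Cnn3. In T cells Hsph1 was at 77.7 and 103 CPM against 40.0 and 42.5, and Cx3cr1 at 39.1 and 45.1 against 14.4 and 17.7.

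**Figure D4:**
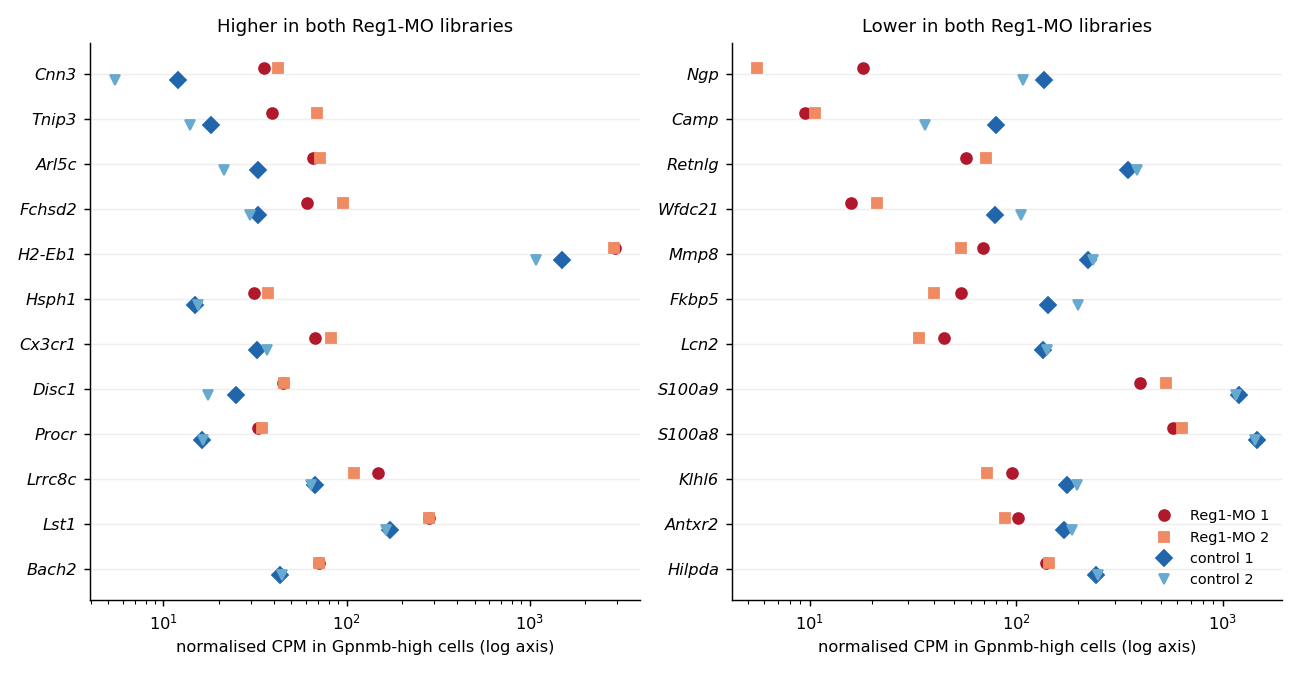
Normalised CPM per library in Gpnmb-high cells, on a log axis, of the 12 genes with both Reg1-MO libraries above and the 12 with both below the controls by smallest p, in order of fold change. In each row the Reg1-MO libraries are drawn above the controls; Retnlg, the call of edgeR, lies at 57.2 and 71.5 against 346 and 384 CPM.

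**Figure D5:**
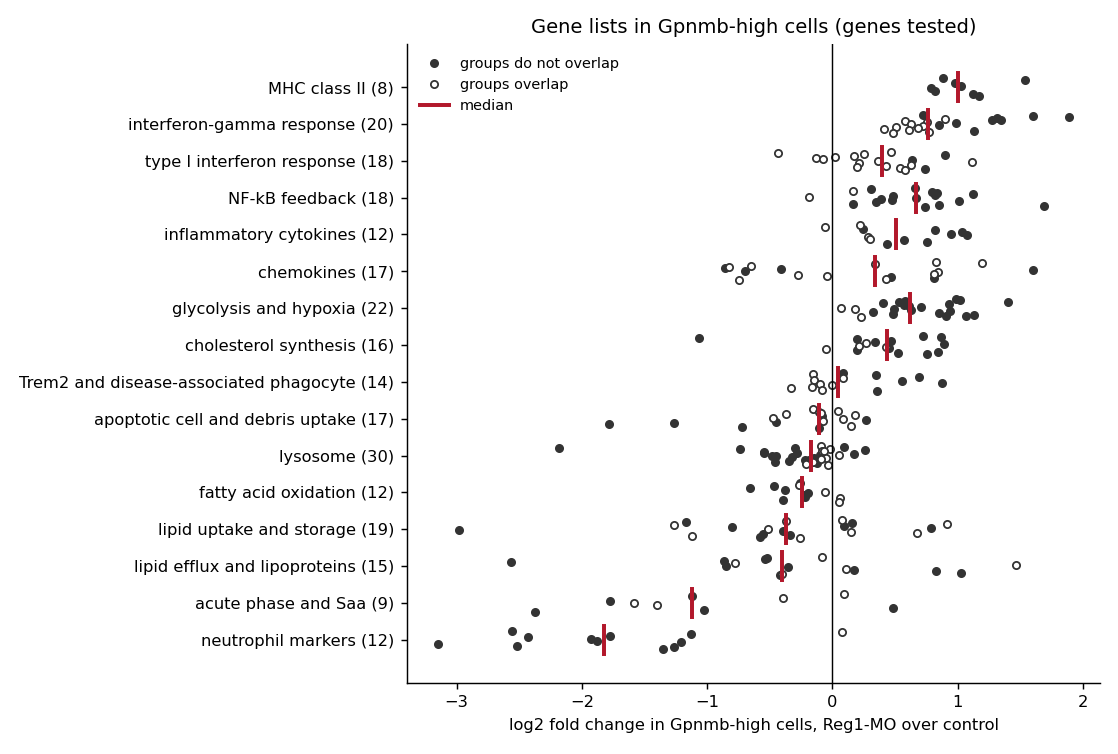
Log2 fold changes, Reg1-MO over control, of the tested members of each gene list in Gpnmb-high cells, with the number tested in parentheses. Filled points are genes whose groups do not overlap, open points those that do, and bars are medians, from 1.00 for MHC class II to -1.83 for neutrophil markers.

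The last comparison asked whether the response to Reg1-MO differed between Gpnmb-high and other gated macrophages of the same libraries. No gene passed the test of that difference. Of 12429 genes tested as an interaction in edgeR, 0 were called (0%) and 864 had an unadjusted p under 0.05, and no other tool was run on it. Leaving out control 1 gave 201 calls and leaving out control 2 gave 28, while leaving out Reg1-MO 2 gave 12 and leaving out Reg1-MO 1 gave 0. Effects within a state are given here as differences between group means of log2 CPM, not as the edgeR fold changes above. Differences between states are edgeR interaction estimates, so they need not equal the gap between the effects printed beside them. The effects of both states lay close for Fabp5 (difference 0.05), Apoe (0.05) and Cd74 (0.01). For Cd74 the log2 effects were 0.89 in Gpnmb-high cells and 0.88 in the others. For Chil3 the level in Gpnmb-high cells was 1679 and 683 CPM after Reg1-MO and 6264 and 11557 after Ctrl MO, and in the others 2573 and 1530 against 8417 and 12107. The difference of its effects was -0.63 ± 0.18 (edgeR adjusted p = 0.501).

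Cell cycle and type I interferon genes had gaps in effect in opposite directions, with no member called. For 18 cell cycle genes the median log2 effect was 0.00 in Gpnmb-high cells and -0.61 in other gated macrophages, with a median difference of 0.92, against -0.01 over all genes. Ube2c was at 7.89 and 0.516 CPM in Gpnmb-high cells of the Reg1-MO libraries and 3.997 and 3.19 in those of the controls, and in the others at 36.6 and 45.1 against 51.7 and 68.0. Its levels in Gpnmb-high cells were low and the groups overlapped there. For 18 type I interferon genes the median effect was 0.68 in Gpnmb-high cells and 1.30 in the others, with a median difference of -0.65. The 7 monocyte markers had a median difference of 0.73. Ifit1, which binds foreign RNA, was at 31.0 and 23.2 CPM in Gpnmb-high cells of the Reg1-MO libraries and 48.7 and 6.59 in those of the controls, and in the others at 50.3 and 56.5 against 30.7 and 5.99. Its difference was -1.41 ± 0.21 (edgeR adjusted p = 0.155). The controls lay far apart in both states, with control 2 the lowest library in each.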

How the data were processed

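UMI counts per gene and cell barcode were deposited by the authors for 4 libraries (10x Chromium 3' kit v3), and their headers name Cell Ranger 5.0.1. The submitters' processing notes also name mm10 and Seurat 4.0. How cells were called, whether doublets were removed and which annotation was counted was not given in the sources used here. Gene positions came from GENCODE M21 on GRCm38 by identifier (32235 of 32285 features) and promoters from RefSeq by symbol.

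UMIs were summed per library over Gpnmb-high cells, so that the library was the replicate. Genes passing filterByExpr (minimum count 10) were normalised by TMM and tested in edgeR 4.0.16 (quasi-likelihood F-test; R 4.3.3 with limma 3.58.1). Fold changes are Reg1-MO over control, with Benjamini-Hochberg adjustment over all genes and calls at 0.05. CPM values of the treatment comparison use TMM library sizes. DESeq2 1.42.0 was an alternative. The treatment effect was compared between Gpnmb-high and other gated macrophages as an interaction with library as a block. A two-sided exact permutation test over libraries was used for shares (scipy 1.17.1), with exact binomial intervals for counting error. Doublets were scored with Scrublet in scanpy 1.11.5 at 0.8% per 1000 barcodes and were kept, except in an alternative. Scripts were tested on simulated data.

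The members, gene lists and tests were chosen with earlier results of these data known. Genes named are the 4 markers and Zc3h12a, the 12 genes each way averaging 20 CPM or more whose groups did not overlap (called genes first, then smallest p), the 15 highest and 10 lowest of the split by Gpnmb with at least 50 CPM in either state, and of each list the called members (up to 4) or else the 2 with the highest mean. Not every such gene is printed, and some are not reported here. Lists on matrix, iron, complement, Csf1 receptor and MiT/TFE genes are not described. In the treatment comparison Atp6v0d2, Ctsd, Cd63, Trem2, Lpl, Csf3r and the list members called by DESeq2 alone lie outside this rule. So do Chil3, Cd74, Ube2c and Ifit1 in the interaction, and the further list members and markers in the split by Gpnmb. All of these were chosen after their values were seen. Replicate numbers were not used to pair the samples in the main fit. Same-numbered libraries had a correlation of deviations from their group means of 0.0619 over 11656 genes. With 2 libraries a group this is a single correlation, which cannot decide whether they were paired. Alternatives changed the Gpnmb minimum, normalisation, filter, tool, depth and doublets, and left out each library.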

Additional observations from a re-analysis of the deposited data

Results flagged for a closer look

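Zc3h12a drew attention because both Reg1-MO libraries lay below both controls in Gpnmb-high cells and above both in other gated macrophages. It was at 46.2 and 45.4 CPM in Gpnmb-high cells after Reg1-MO, against 46.6 and 58.5 after Ctrl MO. In other gated macrophages it was at 48.9 and 47.6 CPM against 47.2 and 46.4. The difference between the effects was -0.23 ± 0.15 on the log2 scale (edgeR interaction, unadjusted p = 0.153, adjusted p = 0.815). It did not pass the test, and the highest of the 8 values was that of Gpnmb-high cells in control 2.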

How the results depend on the processing

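With edgeR, the count of genes called between Reg1-MO and Ctrl MO was 1. It was 0 with DESeq2's size factors, with a Gpnmb minimum of 5 or of 20, without doublets, without cells holding transcripts of other types and with cells thinned to 5000 UMIs. It was 720 without the filter on low counts, 96 with DESeq2 and 85 with the replicate block, of which 62 were shared by DESeq2 and the block. In the lists the calls of the block included Cxcl9 and Socs1 among interferon-gamma genes and Pltp in efflux, all higher. Lpl and Dgat1 in lipid storage and Atp6v0d2 in lysosomes were lower. The block also called 9 of 12 neutrophil markers, 2 acute phase genes and 2 genes of arginine use and alternative activation lower. It called 1 MHC class II, 1 NF-kB feedback and 1 chemokine gene higher. Debris uptake, reported Regnase-1 targets and inflammatory monocyte genes each had 1 lower. Leaving out 1 library gave 0 to 2002 calls, with 2002 without control 1, 313 without control 2 and 0 without either Reg1-MO library. A lone library is then assumed to vary like the other group. Retnlg was not called under the settings with 0 calls or with Gpnmb counted per 10000 UMIs, and its adjusted p was 1.6e-04 under the block. The causes were not tested.

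Differences in effect between the states gave 0 calls, 243 without the filter, 4 with a minimum of 20 Gpnmb UMIs, 11 with Gpnmb per 10000 UMIs, 1 without cells holding transcripts of other types, 6 with thinned cells, and 0 to 201 with 1 library left out (201 without control 1, 28 without control 2, 12 without Reg1-MO 2). No replicate block could be added there because the library was already the block.

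Mean shares kept their direction in all alternatives. Of all kept cells the groups overlapped (exact permutation p = 0.667) at a minimum of 5, per 10000 UMIs, with thinned cells and without doublets. The difference ranged from -30.5 to -21.5 points of gated macrophages over other settings and from -43.5 to -13.6 with 1 library left out, and from -5.85 to -1.97 points of all kept cells. Pairs by replicate number differed by -7.76 and -49.3 points of gated macrophages.

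Of 71 genes recomputed, 56 passed the test without control 1 that had not with all libraries, 42 without control 2, 46 without the filter, 35 with DESeq2 and 27 with the block, and 10 turned sign somewhere, none of them called with all libraries. Arg1 was 0.14 with the replicate block and ran from -0.80 to 1.12 with 1 library left out, with an adjusted p of 1.4e-08 at 1.12 (without control 1). C1qa ran from -0.28 to 0.30, C1qb from -0.42 to 0.15, Npc2 from -0.015 to 0.25, Psap from -0.40 to 0.0047, Tyrobp from -0.17 to 0.013, Insig1 from -0.084 to 0.56 and Lgals3 from -0.062 to 0.056. Insig1 was -0.037 at a minimum of 20 and -0.19 per 10000 UMIs. Lgals3 was -0.028 without the filter, -0.0098 with DESeq2, -0.00066 with the block, -0.0097 without doublets and -0.034 without cells of mixed transcripts. Cxcl2 was -0.021 at a minimum of 20. Csf3r was -0.011 at a minimum of 5, -0.040 at 20 and from -0.065 to 0.19 with 1 library left out. The 74 cells of Reg1-MO 2 limit depth in every comparison.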
